A study of Mus musculus with 6 samples.

Results

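Mx1, Mx2, Gbp3, Irgm1, Rtp4, Usp18, Rsad2, Xaf1, Bst2 and Ifi27l2a are 10 genes that interferon switches on. Products of many of them act against viruses and other intracellular pathogens, while Usp18 acts in feedback and Xaf1 is linked to cell death. The RefSeq table of C57BL/6J lists Mx1 and Mx2 as transcribed pseudogenes. The 10 genes were chosen as interferon-induced GTPases and other effectors outside the OAS and IFIT families. Each had 1 probe set annotated to that gene alone, which gave 10 genes of 19938 with such a probe set. Their signals were compared in primary microglia, the resident macrophages of the brain, between 3 arrays of fosB-null cultures and 3 arrays of wild-type cultures. The fosB-null mice (G/G) carried a null fosB allele on both chromosomes after 20 generations of backcrossing to C57BL/6J, and the wild-type mice were C57BL/6J. In both groups cortical cells of pups aged 2 days were cultured, and the microglia harvested from them at 10 days grew for a further 24 h in new dishes. No stimulus is named for either group, and the labels do not say how many animals or litters gave a culture, so the p-values measure the spread between these arrays.

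Type I interferons bind the receptor chains Ifnar1 and Ifnar2 and, through the kinases Jak1 and Tyk2, activate transcription factors that bind interferon-stimulated response elements in DNA. Low tonic signalling keeps some of these genes on in unstimulated cells, and infection or nucleic acids in the cytosol raise them strongly. FosB, the product of the disrupted gene, belongs to AP-1, a family of dimeric transcription factors that bind a different short element.

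Promoter sequences are shown because the genes share a known inducer, and the search asked which of them hold the letters of the 2 elements. RefSeq promoter windows (GRCm38.p6, 250 bases before to 50 after a gene's start) were matched for 5 of the 10 genes, Gbp3 with 2 starts and Irgm1, Rsad2, Xaf1 and Bst2 with 1 each. The core of the interferon-stimulated response element was searched as GAAANNGAAA on both strands and the AP-1 element as TGANTCA, which reads the same on both strands. The 140 bases before the start follow, 5′ to 3′ on the strand of the gene, with matches to either motif in capitals. Where 2 matches of the first motif overlap, they form 1 run of capitals.
Irgm1, chr11:48871421-48871560, minus strand: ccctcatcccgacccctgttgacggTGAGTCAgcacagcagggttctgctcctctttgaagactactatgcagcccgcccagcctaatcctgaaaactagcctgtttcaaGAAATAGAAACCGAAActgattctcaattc
Gbp3 (first start), chr3:142559904-142560043, plus strand: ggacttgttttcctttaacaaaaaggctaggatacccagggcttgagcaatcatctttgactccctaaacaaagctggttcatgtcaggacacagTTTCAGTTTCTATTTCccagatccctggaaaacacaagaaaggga
Rsad2, chr12:26456453-26456592, minus strand: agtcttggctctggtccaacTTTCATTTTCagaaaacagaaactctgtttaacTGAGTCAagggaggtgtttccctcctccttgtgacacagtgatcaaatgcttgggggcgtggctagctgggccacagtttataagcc
Bst2, chr8:71537473-71537612, minus strand: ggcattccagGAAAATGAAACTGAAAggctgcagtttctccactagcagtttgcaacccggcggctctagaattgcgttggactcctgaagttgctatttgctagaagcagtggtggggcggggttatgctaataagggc
Xaf1, chr11:72301489-72301628, plus strand: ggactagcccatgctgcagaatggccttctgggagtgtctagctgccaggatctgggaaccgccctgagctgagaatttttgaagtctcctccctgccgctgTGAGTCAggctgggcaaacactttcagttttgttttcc

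GAAANNGAAA was found in the promoter windows of 4 of these 5 genes, Irgm1, Gbp3, Rsad2 and Bst2. Of all 27025 genes with a window, 3.99% held it. In Irgm1, Gbp3 and Bst2 a pair of overlapping matches stood in tandem, ending 15, 30 and 115 bases before the start. TGANTCA was found in 3 of the 5, Irgm1, Rsad2 and Xaf1, each time with the letters TGAGTCA. Of all genes with a window, 8.97% held TGANTCA. The second start of Gbp3 held neither motif. A match describes letters in this window and is not a measured binding site.

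No gene of the 10 passed the threshold for a difference between fosB-null and wild-type microglia, although the mean signal of all 10 was below that of wild-type, with differences from -0.68 for Rtp4 to nearly 0 for Mx1 and Mx2. By limma, in a fit that left out the pairing of arrays described below, the adjusted p was 1 for each of them. That fit called 1 of 23410 tested probe sets in all, a share of 0.00427%. At an unadjusted p under 0.05 limma gave 1 of the 10, Rtp4, with 0.453% of all tested probe sets lower at that threshold. The median difference of the 10 was -0.17 on the log2 scale, fosB-null minus wild-type, beside 0.00 over all tested probe sets. Single arrays moved this median: it was -0.07 with fosB-null replicate 3 left out and -0.26 with fosB-null replicate 2 left out. With wild-type replicate 2 left out it was -0.05, and with wild-type replicate 3 left out -0.27. A mean below that of wild-type was found in 42.4% of all tested probe sets, and a difference of -0.1 or lower in 4.81%, which 7 of the 10 genes had.

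Arrays 1, 2 and 3 of one group are matched by number to those of the other, which makes 3 pairs. Between 54.7% and 62.3% of tested probe sets had exactly the same value in both arrays of a pair, and a tie of this kind is no measurement of equality. Of the 30 pair values of the 10 genes, 23 were lower in fosB-null, 2 were higher and 5 were ties. Signals were lower in fosB-null in all 3 pairs for 5 genes, Rtp4, Usp18, Xaf1, Irgm1 and Bst2, and for 5.57% of all tested probe sets. Among the 3520 probe sets without a tie, 37.1% were lower in all 3 pairs, and 6 of the 10 genes were without a tie. Quantile normalization and median centring break the ties, after which 9 of the 10 genes were lower in all 3 pairs, beside 43.6% and 69.5% of all tested probe sets. In pairs 1, 2 and 3 the median difference of the 10 genes was -0.16, -0.15 and -0.07.

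**Figure D1:**
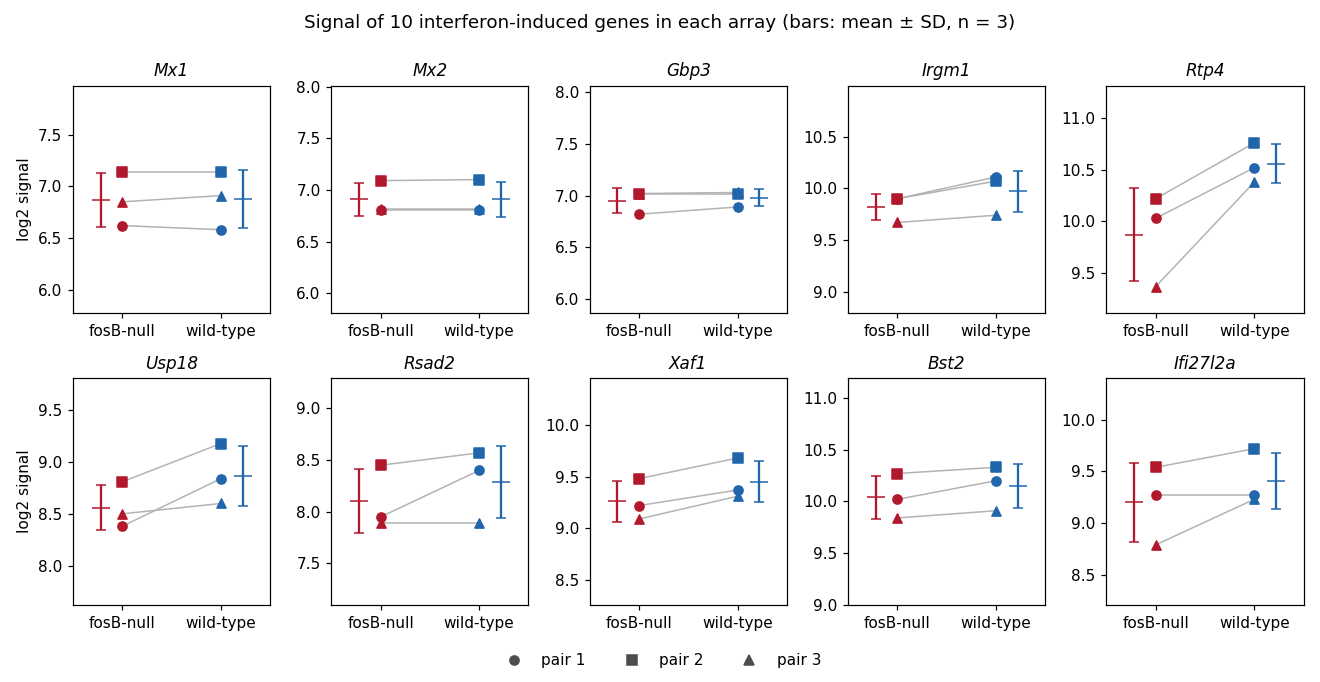
Log2 signal of each of the 10 genes in the 3 fosB-null (red, left) and 3 wild-type (blue, right) arrays, with a line joining same-numbered arrays, marker shapes for pairs 1 to 3, and mean ± SD beside the points; every panel spans the same number of log2 units around its own centre. The groups are apart in Rtp4 alone, and Mx1, Mx2 and Gbp3 have nearly flat lines.

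Of the GTPases, Irgm1 had a slightly lower signal in every pair, and Mx1, Mx2 and Gbp3 hardly differed. Irgm1 encodes an immunity-related GTPase that regulates autophagy and the other GTPases of its family. The 6 log2 signals of Irgm1 were 9.90, 9.90 and 9.67 in fosB-null arrays 1, 2 and 3, and 10.11, 10.07 and 9.74 in the wild-type arrays. The third fosB-null array was the lowest of the 6, and the groups overlapped, because the third wild-type array lay below the first 2 fosB-null arrays. The difference was -0.15 with a standard error of 0.12 (limma unadjusted p = 0.259, adjusted p = 1), and -0.21, -0.18 and -0.07 in the pairs.

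Mx1 and Mx2 encode dynamin-like GTPases; mouse Mx1 restricts influenza virus in the nucleus and mouse Mx2 acts in the cytoplasm. The RefSeq table of C57BL/6J lists both as transcribed pseudogenes, and both groups have this background. Mx1 had log2 signals of 6.62, 7.14 and 6.85 in fosB-null arrays, against 6.58, 7.14 and 6.91 in wild-type arrays. Mx2 had 6.81, 7.09 and 6.82 in fosB-null arrays, against 6.81, 7.10 and 6.82 in wild-type arrays. The groups overlapped completely in both genes. Pair 2 of Mx1 and pairs 1 and 3 of Mx2 were exact ties, and the limma unadjusted p was 0.971 for each.

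Gbp3 encodes a guanylate-binding protein, a large GTPase that gathers on vacuoles of intracellular pathogens. In Gbp3 the log2 signal was 6.82, 7.02 and 7.02 in fosB-null arrays, against 6.89, 7.02 and 7.03 in wild-type arrays. The difference was -0.03, with a 95% interval of -0.24 to 0.18, and pair 2 was a tie. The mean signals of Mx1, Mx2 and Gbp3 lay above those of 29.4%, 30.2% and 31.4% of all probe sets on the array, and no detection call was used here. In these 3 genes 4 of 9 pair values were ties, and the largest pair difference in either direction was 0.08.

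Among the effectors that act on virus particles or replication, Rtp4 differed most in size. Rtp4 encodes a Golgi chaperone that carries G-protein-coupled receptors to the cell surface and that also restricts flaviviruses in mice and other mammals. Its log2 signal was 10.03, 10.22 and 9.37 in fosB-null arrays, against 10.52, 10.76 and 10.38 in wild-type arrays. Every fosB-null array lay below every wild-type array, as in 0.709% of all tested probe sets, and no other gene of the 10 had groups that did not overlap. The mean was 9.87 ± 0.45 in fosB-null and 10.56 ± 0.19 in wild-type arrays (SD, n = 3 each). The difference was -0.68 (standard error 0.22), a signal 1.6-fold higher in wild-type. This was the 13th lowest difference of all 23410 tested probe sets. By limma p was 0.0189 unadjusted and 1 adjusted. The unadjusted p was 0.0562 by limma without wild-type replicate 2, 0.0826 by limma without replicate 1 of both groups, and 0.072 by the ordinary test without limma's moderation. The pairs differed by -0.49, -0.54 and -1.02, and without fosB-null replicate 3 the difference was -0.43.

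Rsad2 encodes viperin, an enzyme that makes a nucleotide that ends viral RNA chains. Rsad2 had log2 signals of 7.95, 8.45 and 7.89 in fosB-null arrays, against 8.40, 8.57 and 7.89 in wild-type arrays. The first pair held most of the difference, at -0.44, and pairs 2 and 3 differed by -0.12 and 0.003. The groups overlapped, and the mean difference was -0.19 with a standard error of 0.22 (limma unadjusted p = 0.413, adjusted p = 1). Cmpk2, a nucleotide kinase gene that lies next to Rsad2, differed by -0.40, -0.09 and -0.01 in the pairs. It was singled out after its values were seen, as the neighbour of Rsad2.

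Bst2 encodes tetherin, which holds budding virus particles at the cell surface. Bst2 had log2 signals of 10.02, 10.27 and 9.84 in fosB-null arrays, against 10.20, 10.33 and 9.91 in wild-type arrays. Each fosB-null array lay slightly below its wild-type partner, with pair differences of -0.17, -0.06 and -0.07, and the groups overlapped. The difference was -0.10 with a standard error of 0.15 (limma unadjusted p = 0.509, adjusted p = 1). The SD was 0.21 within either group, a spread that does not take the pairs into account. When pairs entered the limma fit as a replicate block, the standard error was 0.03. In that limma fit p was 0.0772 unadjusted and 0.674 adjusted.

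**Figure D2:**
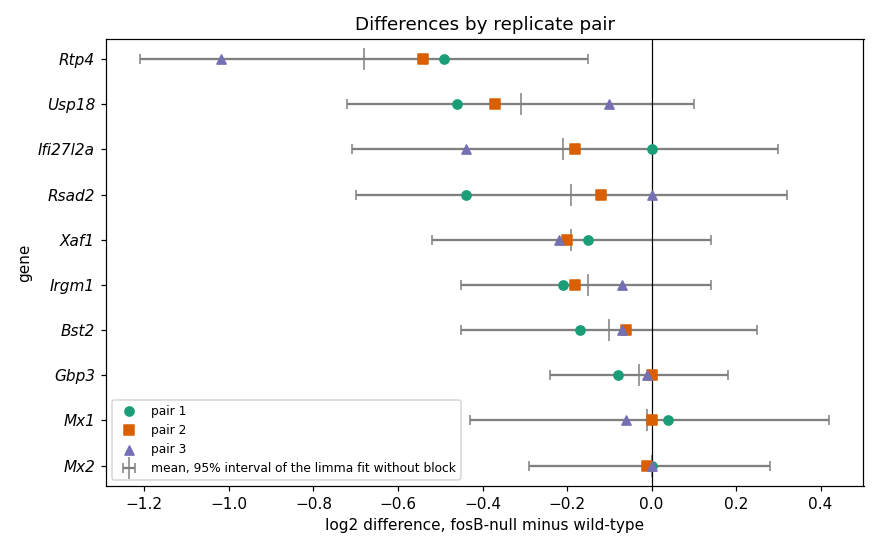
Log2 difference, fosB-null minus wild-type, of each gene in pairs 1, 2 and 3 (coloured markers), with the mean difference and its 95% interval from the limma fit without a block (grey), and genes ordered from the lowest mean difference at the top. The interval of Rtp4, -1.21 to -0.15, is the one that does not reach 0 before adjustment over all probe sets.

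Usp18, the feedback gene of the group, had the second lowest difference. Usp18 encodes a protease that removes the ubiquitin-like protein ISG15 from its targets and that also binds Ifnar2 and damps receptor signalling. Its log2 signal was 8.38, 8.81 and 8.50 in fosB-null arrays, against 8.84, 9.18 and 8.60 in wild-type arrays. Each fosB-null array lay below its partner, but the second fosB-null array lay above the third wild-type array. The difference was -0.31 with a standard error of 0.17 (limma unadjusted p = 0.118, adjusted p = 1), and -0.46, -0.37 and -0.10 in the pairs.

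Xaf1 and Ifi27l2a are interferon-induced genes linked to cell death. Xaf1 encodes a partner of the apoptosis inhibitor XIAP. Log2 signals of Xaf1 were 9.22, 9.48 and 9.09 in fosB-null arrays, against 9.37, 9.68 and 9.31 in wild-type arrays. The pairs differed by nearly the same amount, -0.15, -0.20 and -0.22, with a mean of -0.19, and the groups overlapped. By limma p was 0.214 unadjusted and 1 adjusted. When pairs entered the limma fit as a replicate block, p was 0.00411 unadjusted and 0.674 adjusted.

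Ifi27l2a encodes a small hydrophobic protein of the ISG12 family. Log2 signals of Ifi27l2a were 9.27, 9.54 and 8.79 in fosB-null arrays, against 9.27, 9.72 and 9.23 in wild-type arrays. The first pair was an exact tie, and the others differed by -0.18 and -0.44. The groups overlapped, with a mean difference of -0.21 and a standard error of 0.21 (limma unadjusted p = 0.365, adjusted p = 1). Ifi27, its neighbour on the chromosome and a member of the same family, had log2 signals of 11.46 ± 0.14 in fosB-null and 11.51 ± 0.07 in wild-type arrays (SD, n = 3 each).

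**Figure D3:**
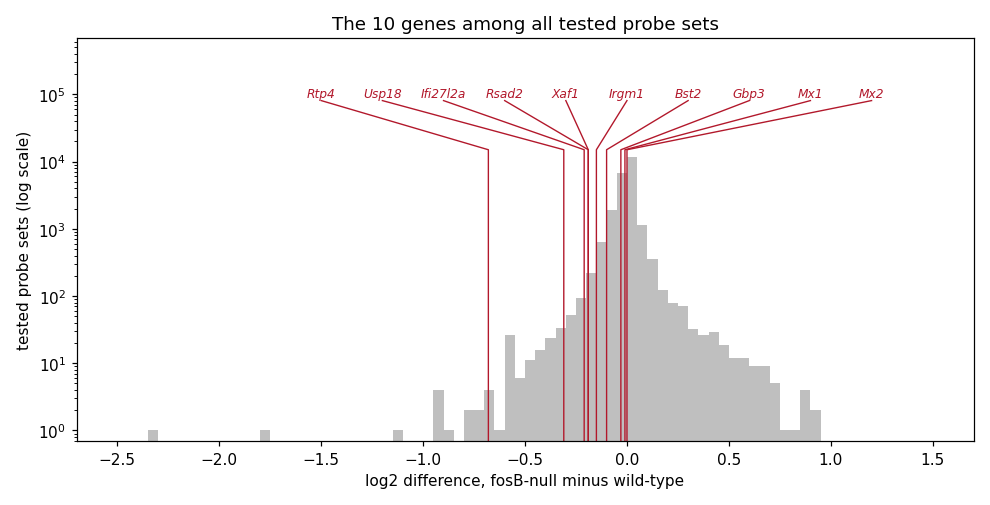
Histogram of the log2 difference, fosB-null minus wild-type, of all 23410 tested probe sets (grey, count on a log axis), with a red line at the difference of each of the 10 genes. Rtp4, at -0.68, lies in the sparse left tail, and Mx1, Mx2 and Gbp3 lie in the central peak.

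The numbers pair the arrays, and taking the pair into account called none of the 10 genes. The fit without a block ignores the pairs, and its standard errors were larger than with the fixed block for all 10 genes. They were 0.12 without and 0.04 with the block for Irgm1, 0.14 and 0.02 for Xaf1, and 0.22 and 0.15 for Rtp4. Limma with the replicate number as a fixed block gave 3 of the 10 at an unadjusted p under 0.05, Irgm1, Rtp4 and Xaf1, with 1.76% of all tested probe sets lower at that threshold, and called 0 probe sets in all. When pairs entered as a random block, with a consensus correlation of 0.956 estimated over all tested probe sets, of which 27.8% were tied in all 3 pairs, 6 of the 10 had an unadjusted p under 0.05, beside 6.30% of all tested probe sets that were lower. The lowest adjusted p of that limma fit among the 10 were 0.0743 for Xaf1 and 0.0967 for Rtp4, and it called 47 probe sets in all, or 0.201%, with 0.145% lower.

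Most of the 10 genes varied alike from array to array within each group. The second array was the highest for 9 of the 10 genes in fosB-null and for 8 of the 10 in wild-type. The third array was the lowest for 6 of the 10 genes in fosB-null and for 7 of the 10 in wild-type. On average over the 10 genes, the second array lay 0.23 above its group mean in fosB-null and 0.21 above it in wild-type, where the average over all tested probe sets was 0.07 in each. The third array deviated from its group mean by -0.17 in fosB-null and by -0.16 in wild-type. Across the 6 arrays, which share pairs, the Pearson correlation between 2 of the genes had a median of 0.74 over 45 gene pairs, from -0.37 for Gbp3 and Irgm1 to 0.97 for Rsad2 and Bst2. Gbp3 departed from this in part: its deviations from the group means correlated at -0.52 with those of Irgm1, -0.21 with Rtp4, -0.06 with Bst2 and 0.01 with Ifi27l2a. With Mx1 they correlated at 0.84, with Mx2 at 0.48, with Usp18 at 0.39, with Xaf1 at 0.23 and with Rsad2 at 0.10. The deviations of Mx1 and Irgm1 correlated at -0.11.

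The gene whose 6 values followed the mean profile of the 10 most closely was Slfn5, another interferon-induced gene, with a Pearson correlation of 0.999 over the 6 arrays. Slfn5 differed by -0.41, -0.35 and -0.42 in the pairs. The search covered 2741 other genes whose 6 values spanned at least 0.5, and 111 of them, or 4.05%, had a correlation above 0.9. The next closest were Qpctl with 0.985, Ndufa6 with 0.983 and Ndufs6 with 0.981, which are in none of the interferon lists. Of the 10 closest genes, Slfn5 and Oas1a, an activator of RNA decay, belong to those lists.

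The rest of the interferon pathway was set beside the 10 genes. Of 89 other measured genes of the pathway, 0 passed the limma adjusted threshold and the median difference was -0.04. By limma 4 of the 89 had an unadjusted p under 0.05, beside 0.722% of all tested probe sets in either direction. In all 3 pairs 20 of the 89 were lower in fosB-null, beside 5.57% of all tested probe sets. For each list the genes with the highest signal are named.

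Ligands and receptors had a median difference of 0.00, to which exact ties contributed. Of 14 measured, 4 had a mean below that of wild-type, 4 above and 6 were exact ties in all pairs, which are no measurement of equality. Of the 14, 1 was lower in all 3 pairs. The interferon-gamma receptor chain Ifngr2 had log2 signals of 13.13 ± 0.14 in fosB-null and 13.21 ± 0.12 in wild-type arrays, and Ifnar2 had 12.53 ± 0.12 in fosB-null and 12.56 ± 0.16 in wild-type arrays (SD, n = 3 each). Il10rb, shared by the receptors of interferon-lambda and interleukin-10, was tied in every pair. Of 10 measured genes of JAK-STAT signalling and its feedback, 8 were below wild-type and 2 above, with a median difference of -0.01. Of these, 2 were lower in all 3 pairs. Ptpn6, a phosphatase that restrains the pathway, differed by -0.02, the inhibitor Pias1 by 0.01 and Jak1 by -0.01. Of 15 transcription factors and sensors, 10 were below wild-type and 5 above, with a median of -0.05. In all 3 pairs 5 of the 15 were lower and 1 was higher, beside 5.57% and 2.20% of all tested probe sets. The RNA sensor Tlr7 differed by 0.11, and the factors Irf5 and Irf8 by -0.06 and 0.002.

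Of the other interferon-induced genes, those of the OAS and IFIT families had the lowest median. Of 8 other interferon-inducible GTPases, 4 were below wild-type, 1 above and 3 tied in all pairs, with none lower in all 3 pairs. Gbp9 differed by -0.23, Gbp7 by -0.13 and Gbp2b by 0.07. Of 11 OAS and IFIT genes, 9 were below wild-type and 2 tied, 4 were lower in all 3 pairs, and the median was -0.20. Oasl2 differed by -0.54, Oas1a by -0.20 and Oas2 by -0.11. Of 4 genes of the ISG15 system, 3 were below wild-type and 1 above, and 2 were lower in all 3 pairs. Ube2l6, Herc6 and Uba7, which attach ISG15 to proteins, differed by -0.09, 0.01 and -0.004. Of 27 other effectors, 24 were below wild-type and 3 above, 6 were lower in all 3 pairs, and the median was -0.06. Ifitm2 and Ifitm3, which block virus entry, differed by -0.09 and -0.01, and Lgals3bp by -0.09. No gene of these lists passed the limma adjusted threshold.

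Relatives by structure, namely dynamins, atlastins, the Rtp genes outside Rtp4 and inhibitors of apoptosis, were listed together with Ifi27. Of these 11, 2 were below wild-type, 6 above and 3 tied in all pairs, with differences between -0.09 and 0.06. The dynamin gene Dnm2 had log2 signals of 12.04 ± 0.06 in fosB-null and 12.03 ± 0.06 in wild-type arrays (SD, n = 3 each).

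**Figure D4:**
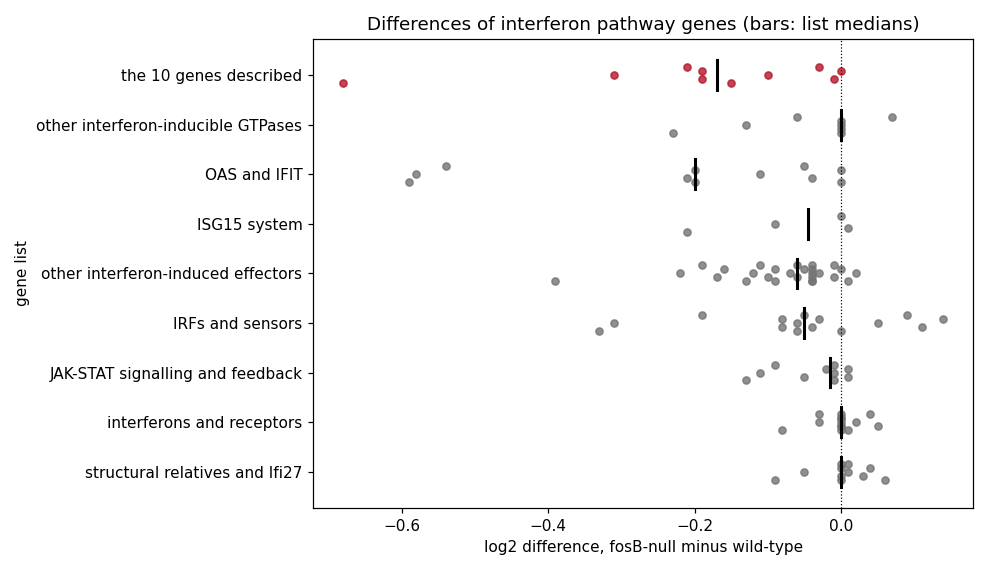
Log2 difference, fosB-null minus wild-type, of each measured gene (points) in the 10 genes described (red) and in 8 other lists (grey), with a black bar at each list's median. Medians run from -0.20 for OAS and IFIT genes and -0.17 for the 10 genes to 0.00 for ligands and receptors and for the structural relatives with Ifi27.

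Facts of the whole series bear on these values. Trem2, Csf1r and Cx3cr1, the brightest microglial markers, had log2 signals of 13.02 to 13.62, and the dimmest of the 9 measured had 8.82. These 9 differed by -0.09 to 0.13, with 2 below wild-type and 7 above. In all 3 pairs 2 of the 9 were higher in fosB-null, beside 2.20% of all tested probe sets. The brightest border macrophage marker had a log2 signal of 11.24 and the brightest oligodendrocyte marker one of 9.79. All 6 astrocyte markers were exact ties in every pair, with log2 signals of 6.47 to 8.27. Of neuronal markers 2 of 5 were below wild-type and 2 above, of endothelial markers 2 of 4 were below and 1 above, 4 of 6 fibroblast and mural markers were above, and all 5 blood leukocyte markers were above, by 0.01 to 0.05. Of 6 oligodendrocyte markers, 5 had a mean below wild-type and 1 was lower in all 3 pairs, with a summed linear signal of 2080 to 2240 in fosB-null and 2180 to 2550 in wild-type arrays. Of 5 border macrophage markers, 3 had a mean above wild-type, 2 were tied in all pairs and none was higher in all 3, with a summed linear signal of 5190 to 6120 in fosB-null and 4410 to 5480 in wild-type arrays. No marker of any of these lists had a limma unadjusted p under 0.05. Their part in the differences of the 10 genes was not tested, and in these bulk samples fewer cells of a type and less RNA per cell cannot be told apart. Fosb itself had log2 signals of 7.90 ± 0.13 in fosB-null and 8.02 ± 0.11 in wild-type arrays (SD, n = 3 each), with an adjusted p of 1, and the position of its probe set within the null allele is unknown, so these values leave the labels unchecked. None of the 10 genes lies on chromosome 7, which holds Fosb.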

How the data were processed

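The authors deposited 1 log2 signal for each of 35557 probe sets on each array. The submitters' processing notes name Affymetrix Expression Console. No version, summary method or normalization was found in the sources used here, and the scale is taken as log2 because values ran from 1.73 to 14.6. From each culture 100 ng of RNA was labelled, per the labels' protocols. Genes came from the platform annotation, with symbols updated through a RefSeq table (GRCm38.p6), which held 21698 of the 21789 probe sets with 1 symbol.

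The comparison used limma 3.58.1 under R 4.3.3 (lmFit, eBayes, two-sided, no block, no filter) over the 23410 probe sets with at least 1 symbol, with Benjamini-Hochberg adjustment over all of them and a threshold of 0.05. Precision is limited by the number of arrays. The fit was tested on simulated data, which held no exact ties like those of these arrays. The simulated pairs also shared less of their variance than the consensus correlation of 0.956 estimated here. The simulation therefore does not show how the fit behaves under the ties and pairing of these arrays. Arrays with the same number deviated together from their group means, with correlations of 0.91, 0.82 and 0.82, and at 0.72, 0.33 and 0.32 over probe sets without a tie, so the numbers pair the arrays. This was read from the values: the labels number the arrays without saying what is shared. Any other 2 arrays shared at most 3 identical values.

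The 10 genes, the other lists and the motifs were chosen with earlier results of these data known. All 10 genes are named. Of each other list, the cell type markers counting as 1 list, up to 3 genes with the highest mean signal are named, and a gene with several probe sets is given by the one with the highest mean. Genes named outside this rule are marked. Besides the 2 motifs given, 1 other was searched and is not reported here. Listed genes without a single-symbol probe set were not analysed here.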

Additional observations from a re-analysis of the deposited data

How the results depend on the processing

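The count of the 10 genes called at an adjusted p under 0.05 was 0 in every fit run: limma as reported, quantile normalization, centring on array medians, no dim probe sets (the lowest 40%), probe sets of 1 gene or all probe sets, robust or trended moderation, an ordinary test without moderation, array weights, the replicate block, the random replicate block, and with single arrays or both arrays of a number left out. At an unadjusted p under 0.05 the replicate block gave 3 of the 10, against 1 without it, and the random block 6. The count was 0 with the ordinary test, without wild-type replicate 2 and without replicate 1 of both groups, 2 with array weights, without fosB-null replicate 2 and without replicate 3 of both groups, and 3 without wild-type replicate 3. A replicate block whose prior variance left out fully tied probe sets, added after the data were seen, gave 5. The share of all tested probe sets at that threshold was not computed for this fit, the ordinary test, array weights or arrays left out. These counts therefore have no background to be read against. Neither block gave a call among the 10 genes. Over all tested probe sets the fixed block called 0 and the random block 47, against 1 without a block. Genes lower in fosB-null in all 3 pairs numbered 5 as deposited, but 9 with quantile normalization and 9 with median centring. Both break the exact ties, and 43.6% and 69.5% of all tested probe sets were then lower in all 3 pairs. With 1 array left out, 6 genes were lower in both remaining pairs. These were the same 5 with Ifi27l2a without replicate 1, Gbp3 without replicate 2 or Rsad2 without replicate 3. The share of all tested probe sets lower in 2 pairs was not computed. The median difference of the 10 was -0.27 when wild-type replicate 3 was left out and -0.05 when it was wild-type replicate 2, the widest range, and -0.26 without fosB-null replicate 2, -0.07 without fosB-null replicate 3 and -0.10 without replicate 1 of both groups. Leaving out arrays turned the sign of Mx1 (range -0.15 to 0.12, and 0.02 without both arrays of replicate 3), Mx2 (-0.10 to 0.09) and Gbp3 (-0.07 to 0.04). The other 7 differences kept their sign but moved by over 1.5 times in one direction or the other, and ran from -0.85 to -0.43 for Rtp4, -0.45 to -0.16 for Usp18, -0.39 to -0.04 for Rsad2, -0.38 to nearly 0 for Ifi27l2a, -0.30 to -0.08 for Xaf1, -0.27 to -0.07 for Irgm1 and -0.22 to nearly 0 for Bst2. Averaging the probe sets of a gene changed nothing, since each of the 10 has 1.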

Other observations

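Limma with pairs as a random block, which called none of the 10 genes, called 3 of the 89 other measured interferon pathway genes, beside 0.145% of all tested probe sets called lower by that fit. That fit used a consensus correlation of 0.956 estimated with tied probe sets included, and 85.0% of tested probe sets were tied in at least 1 pair. The 3 genes are named after their values were seen. Oasl2, an OAS-like antiviral gene, differed by -0.56, -0.48 and -0.59 in the pairs (random block adjusted p = 0.00926). Irf7, the transcription factor that amplifies type I interferon responses, differed by -0.37, -0.36 and -0.25 (adjusted p = 0.0286). Slfn5, the gene closest in profile to the 10, had an adjusted p of 0.0436. Without a block the limma adjusted p of each was 1, and with the fixed replicate block no probe set was called.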
